A study of Homo sapiens with 6 samples.

Results

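The genes described here are 45 genes of the lysosome in a human lymphoma cell line: 2 transcription factors that regulate lysosomal genes, 5 lysosomal membrane proteins, 22 lumenal hydrolases and cofactors, and 16 subunits and accessory proteins of the vacuolar ATPase. They were taken from a list of symbols, with no threshold on measured values, and all 45 were found among the 18278 genes of the deposited table through their Ensembl identifiers in GENCODE release 29. The list was chosen with earlier results of these data known. The line, Toledo, is an established human line from a diffuse large B cell lymphoma that grows in suspension. TP-064 is a small molecule inhibitor of CARM1, an enzyme that methylates arginines in histones and in coactivators of transcription. Polyadenylated RNA was sequenced from 3 samples of Toledo cells exposed to 5 uM of TP-064 over 6 days and from 3 given its solvent DMSO for the same 6 days. All 6 samples are of 1 line, for which the labels name no engineered allele, and the study's title places it in work on lymphomas with mutated CREBBP or EP300.

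Lysosomes are acidic compartments in which proteins, lipids, glycans and nucleic acids are degraded. The vacuolar ATPase (V-ATPase) acidifies them by coupling ATP hydrolysis in its cytosolic V1 sector to proton transport through its membrane V0 sector. TFEB and TFE3 are related transcription factors that bind E-box sequences in the promoters of many lysosomal genes, and their entry into the nucleus is controlled by mTORC1 at the lysosomal surface. CARM1 has been described as a coactivator of TFEB-dependent transcription of autophagy and lysosomal genes.

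Sequencing gave 41354131 to 48360867 recovered reads per library. Values are normalized read counts, which are gene counts over each sample's size factor, and differences are TP-064 minus DMSO in log2 units after a pseudocount of 1 was added. The treatment separated the libraries along a first principal component that held 75% of the variance, and TP-064 replicate 3 stood apart from the other TP-064 libraries on the second, which held 11.6%. Without that library 35 of the 45 genes were still called higher and 4 lower, with a median log2 fold change of 0.39. Each of the 11 B cell identity markers had reads, of which 5 rose and 4 fell, and their summed level was 231206 to 248602 normalized reads after TP-064 and 209394 to 214680 after DMSO. CD74 alone held 103171 to 112491 of these reads after TP-064 and 88157 to 92593 after DMSO. The sum hides larger changes of single markers in both directions. BLNK rose from 2051, 2223 and 2056 to 11944, 12100 and 11867, and MS4A1 rose by 0.90 on the log2 scale. CD22 fell from 1634, 1840 and 1763 to 280, 334 and 283, and CD79A fell by 0.62. Of 15 markers of monocytes and macrophages, which are rich in lysosomes, 3 had a row in the table. Their summed level was 71.2 to 99.5 normalized reads after TP-064 and 34.6 to 65.6 after DMSO. The macrophage growth factor receptor CSF1R rose among them, from 12.5, 18.9 and 6.49 normalized reads to 68.2, 49.5 and 75.2, while the monocyte coreceptor CD14 fell, from 18.7, 20.9 and 10.8 to 8.74, 3.96 and 6.09. Of 12 T and NK cell markers 3 had a row: the T cell receptor chain TRAC rose from 24.9, 39.8 and 36.8 to 90.03, 83.1 and 87.3, CD4 rose from 3.11, 5.96 and 6.49 to 22.7, 19.8 and 24.4, and KLRD1 did not pass the test. Of 10 epithelial and stromal markers 3 had a row: PECAM1, an adhesion molecule of endothelium and leukocytes, rose from 34.3, 34.8 and 29.2 to 260.5, 297.7 and 258.0, the collagen gene COL1A1 fell, and KRT8 did not pass. The part of these markers in the results below was not tested. Nothing in the labels says that replicates came from separate cultures, so the p-values cover the spread among these samples alone, and that spread may be technical.

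Which lysosomal transcripts differ after prolonged CARM1 inhibition was asked by setting TP-064 against DMSO. Most of the 45 genes were higher after TP-064: 35 rose, 4 fell and 6 did not pass the test (limma, adjusted p under 0.05 over all 16048 genes tested). The 39 called genes stand beside a background in which 65.1% of all tested genes were called. All 45 passed the filter on low values. The risers made up 77.8% of the genes and the fallers 8.89%. Over all tested genes 31.9% rose and 33.3% fell, and among protein-coding genes 34.3% rose and 39.3% fell. Since most of the 45 genes are well expressed, genes with a mean of at least 1000 normalized reads are a closer background, and of these 33.0% rose and 47.4% fell. A change of at least 1.5-fold was called for 13 risers and 2 fallers among the 45, against 14.0% and 13.5% of all genes tested and 7.37% and 13.5% of the well expressed ones. The median log2 fold change was 0.39 over the 45 genes and 0.01 over all genes, and single genes ranged from -0.75 to 1.14.

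In 35 of the 45 genes every TP-064 value lay above every DMSO value, and in 6 every TP-064 value lay below. The groups were apart upward in 33.9% of all genes and downward in 35.2%. Together the 45 genes took 0.409%, 0.402% and 0.408% of all normalized reads in the TP-064 libraries and 0.290%, 0.286% and 0.291% in the DMSO libraries. The 2 groups do not overlap, and the ratio of their means was 1.41 (two-sided exact permutation p = 0.1, the smallest that 3 samples against 3 allow). Scaling by library size moved the median log2 fold change of all genes to 0.13 and that of the 45 genes to 0.52. Under that scaling 39 of the 45 genes rose and 4 fell, against 6653 rising and 4158 falling over all genes, where the scaling used throughout gave 5112 and 5337.

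**Figure D1:**
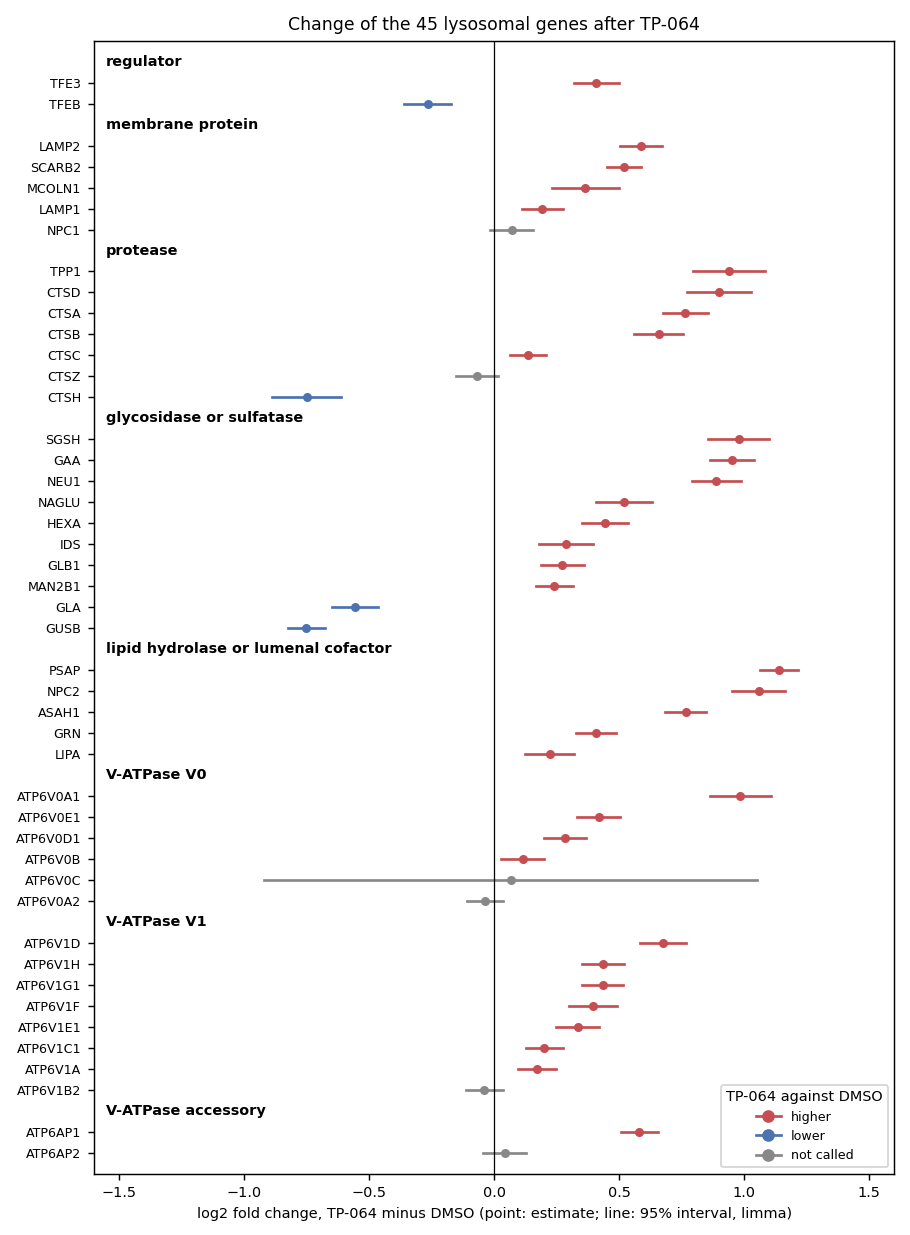
Log2 fold change of each of the 45 genes in TP-064 against DMSO, with 95% intervals from limma and genes grouped by role. PSAP lies farthest to the right at 1.14, and CTSH and GUSB lie farthest to the left at -0.75.

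**Figure D2:**
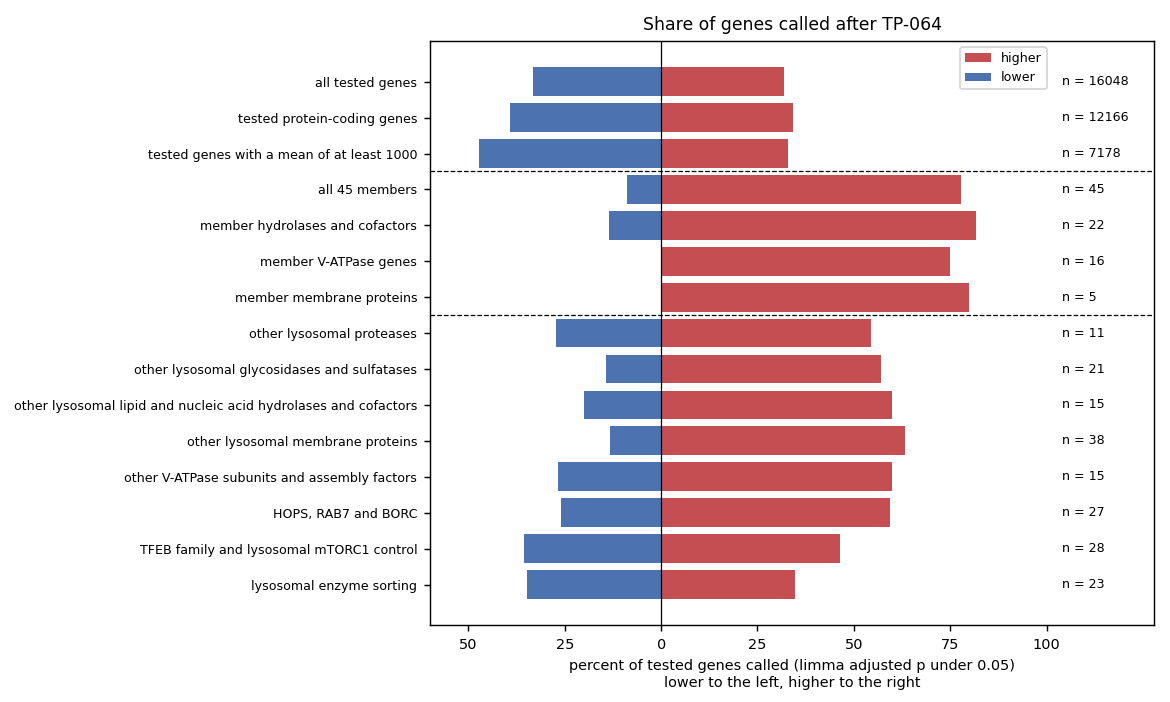
Percent of tested genes called higher (bars to the right) or lower (bars to the left) in 3 backgrounds, in the 45 genes (members) and their main roles, and in 8 other lysosomal lists, with the number tested at the right. The share that rose is 77.8% in the 45 genes and 31.9% in all tested genes.

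The regulators moved in opposite directions. TFEB (chr6:41683978-41736259, minus strand, GRCh38) had normalized read counts of 1600, 1685 and 1544 with TP-064 and 1919, 1901 and 1983 with DMSO. Each TP-064 value lay below each DMSO value, and TFEB fell by 0.27 on the log2 scale (SE 0.04, limma adjusted p = 9.05e-05, n = 3 per group). With library size scaling the fall of TFEB was smaller, at -0.14, and still called, but it did not pass against a null of a 1.2-fold change. TFE3 (chrX:49028726-49043486, minus strand), its paralogue, had 2310, 2259 and 2431 with TP-064 and 1726, 1747 and 1801 with DMSO. All TFE3 values were higher with the inhibitor, and the rise was 0.41 (SE 0.04, limma adjusted p = 5.99e-07). Per kilobase of merged exon length, the level of TFE3 was 1.90, 1.77 and 2.08 times that of TFEB in the TP-064 libraries and 1.19, 1.21 and 1.2 times in the DMSO libraries. The mean ratios were 1.92 ± 0.155 and 1.2 ± 0.0126 (SD, n = 3; two-sided exact permutation p = 0.1, the smallest possible). With the longest transcript as length they were 1.10 and 0.691, so which regulator is the more abundant in DMSO depends on the length used. The ratio rose by a factor of 1.6, which is the same for any length by construction, since the lengths cancel in it.

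RefSeq promoter windows on GRCh38.p14, from 250 bases before to 50 after the annotated start, were matched for 33 of the 45 genes. They were searched on both strands for the E-box core CACGTG, for TCACGTG and for the palindrome TCACGTGA, each of which contains the core. The core was found in 9 of the 33 promoters (27.3%), in 7.28% of all 27305 promoters in the table and in 9.82% of those of tested protein-coding genes. Other lysosomal genes, from 8 lists described further on, held it in 33 of 139 matched promoters (23.7%). All 9 also held TCACGTG on 1 strand or the other, against 3.76% of all promoters, and 6 held TCACGTGA (18.2%), against 1.01% of all promoters and 1.93% of the coding ones. A match is a description of these letters and not a measured binding site. Transcripts of all 9 genes rose after TP-064, in a set where 35 of the 45 genes rose. The part of the E-box in these rises was not tested, and the promoters are shown as description. That of LAMP1 held 6 cores, the most among the 33 promoters (chosen after its sequence was seen), and that of GAA held the core within a palindrome of 10 bases at 2 places. Capitals mark the core with the bases that extend it, and sequences run 5′ to 3′ on the gene's strand.
LAMP1 (chr13:113296989-113297288, plus strand): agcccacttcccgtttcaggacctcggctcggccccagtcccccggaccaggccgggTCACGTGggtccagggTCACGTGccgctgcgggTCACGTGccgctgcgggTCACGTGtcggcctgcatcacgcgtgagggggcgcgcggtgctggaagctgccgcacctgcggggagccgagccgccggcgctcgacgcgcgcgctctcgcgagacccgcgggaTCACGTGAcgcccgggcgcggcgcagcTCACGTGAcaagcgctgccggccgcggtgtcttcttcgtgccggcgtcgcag
GAA (chr17:80101331-80101630, plus strand): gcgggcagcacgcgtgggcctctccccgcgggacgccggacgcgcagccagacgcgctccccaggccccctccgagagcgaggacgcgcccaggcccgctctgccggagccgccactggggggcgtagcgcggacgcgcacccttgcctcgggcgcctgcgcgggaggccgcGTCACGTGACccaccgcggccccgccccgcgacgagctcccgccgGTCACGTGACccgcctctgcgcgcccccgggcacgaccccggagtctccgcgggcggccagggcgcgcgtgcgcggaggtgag

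The other 7 promoters with the core held it at 1 or 2 places. Windows of 30 bases around 1 match in each are shown for comparison of the flanks, with MCOLN1 and ATP6V1G1 sharing the palindrome of 10 bases with GAA and ATP6V0D1 and CTSA holding that of 8.
MCOLN1 (chr19:7522598-7522627, plus strand): gggctaccggGTCACGTGACcgaggcacag
ATP6V1G1 (chr9:114587699-114587728, plus strand): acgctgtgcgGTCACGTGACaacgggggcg
ATP6V0D1 (chr16:67481199-67481228, minus strand): cccccttatggTCACGTGAggcgcttgcgc
CTSA (chr20:45891298-45891327, plus strand): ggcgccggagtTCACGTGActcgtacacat
ATP6V0B (chr1:43974890-43974919, plus strand): accggcgtggggTCACGTGgtaccggcgca
NEU1 (chr6:31862931-31862960, minus strand): gatgctgcgtgaTCACGTGggaggagatga
CTSD (chr11:1763957-1763986, minus strand): gccggccgcgccCACGTGAccggtccgggt

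The 9 genes with the core had a median log2 fold change of 0.43. Of the 24 matched genes without it, 15 rose and 4 fell, and their median was 0.26. In the other lysosomal lists 21 of 32 tested genes with the core rose and 7 fell, and of 106 without it 58 rose and 22 fell. Among all tested protein-coding genes with a promoter in the table, 35.8% of those with the core and 33.7% of those without it rose. The shares that fell were 40.2% with the core and 39.8% without it. For TCACGTGA the shares that rose were 44.9% with and 33.7% without, and the shares that fell were 29.9% and 40.0%. No test of these shares was made. TCACGTGA between a G and a C, the form shared by GAA, MCOLN1 and ATP6V1G1 and searched after the sequences were seen, stood in 3 of the 33 promoters and in 0.359% of all promoters.

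**Figure D3:**
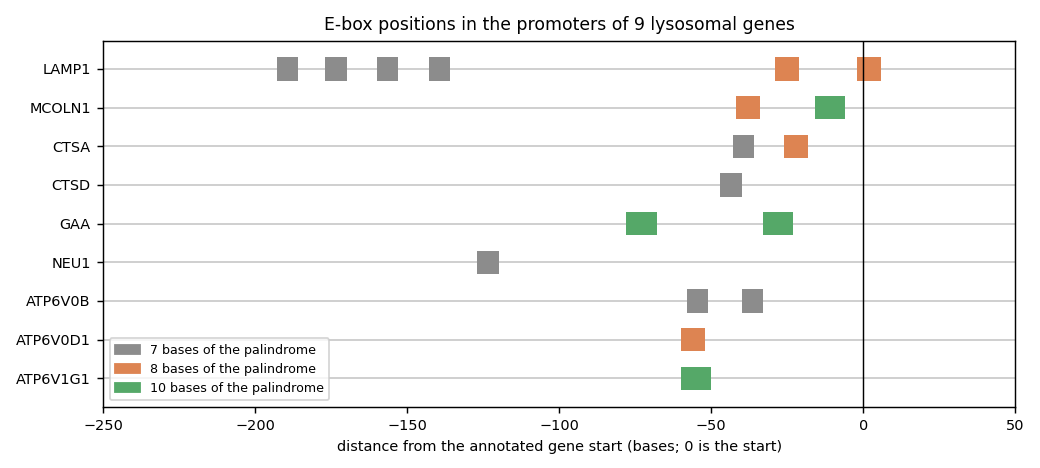
Positions of the E-box in the 9 promoters that hold the core, in bases from the annotated start, with colours for matches of 7, 8 and 10 bases of the palindrome. LAMP1 has 6 marks, and no other promoter has more than 2.

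Of the 5 membrane proteins, 4 rose and 1 did not pass the test. LAMP2 (chrX:120427827-120469365, minus strand), a heavily glycosylated protein of the lysosomal membrane with an isoform that acts in chaperone-mediated autophagy, had 7652, 8267 and 8308 normalized reads with TP-064 and 5194, 5435 and 5493 with DMSO. The lowest TP-064 value exceeded the highest DMSO value, and the log2 fold change was 0.59 (SE 0.04, limma adjusted p = 5.15e-09). SCARB2 (chr4:76158733-76234536, minus strand), an abundant protein of the lysosomal membrane that also serves as a sorting receptor, had 12633, 12425 and 12617 against 8910, 8679 and 8685. Its replicates lay close together in both groups, and it rose by 0.52 (SE 0.03, limma adjusted p = 1.54e-09). MCOLN1 (chr19:7522626-7534009, plus strand), the calcium channel through which lysosomes activate calcineurin and TFEB, had fewer reads than these, with 596, 576 and 579 against 472, 432 and 455. Its groups were apart and its log2 fold change was 0.36 (SE 0.06, limma adjusted p = 0.000108). LAMP1, the companion of LAMP2, rose less, by 0.19 (SE 0.04, limma adjusted p = 0.000373), from 4342, 4432 and 4320 to 4917, 5235 and 4831. NPC1, which exports cholesterol from the lysosome, had a log2 fold change of 0.07 with a 95% interval of -0.01 to 0.16 (limma adjusted p = 0.134). It was called higher under library size scaling, at 0.19, and, at 0.10 each, with TMM scaling in limma, with edgeR, with limma-voom and without TP-064 replicate 2.

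Among the 7 proteases 5 rose, 1 fell and 1 did not pass. TPP1 (chr11:6612763-6619485, minus strand), which removes tripeptides from protein ends and is deficient in a neuronal ceroid lipofuscinosis, had 1224, 1026 and 1055 normalized reads with TP-064 and 591, 580 and 549 with DMSO. These groups were far apart, and the log2 difference was 0.94 (SE 0.07, limma adjusted p = 9.66e-09). CTSD (chr11:1752752-1764573, minus strand), the main aspartic protease of the lysosome, had 1307, 1394 and 1206 against 691, 728 and 673. Every TP-064 value lay well above the DMSO values, and the log2 fold change was 0.90 (SE 0.06, limma adjusted p = 3.70e-09). Of its exon length, 41.7% is shared with another annotated gene on the same strand, so its count is uncertain to the extent that the authors' counting left out shared reads. CTSA (chr20:45890144-45898820, plus strand), a carboxypeptidase that also protects the enzymes GLB1 and NEU1 in a complex, had 4429, 4365 and 3981 against 2512, 2487 and 2509. The DMSO values differed little and all TP-064 values were higher, by 0.76 (SE 0.04, limma adjusted p = 5.50e-10). CTSA lies opposite PLTP over 1668 bases of exon, and PLTP rose by 0.57.

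The cysteine proteases did not move as one. CTSB, an endopeptidase, rose by 0.66, and CTSC, a dipeptidyl peptidase that activates granule proteases, rose by 0.13. CTSH (chr15:78921058-78949574, minus strand), an aminopeptidase, had 408, 419 and 378 normalized reads with TP-064 and 654, 679 and 694 with DMSO. All TP-064 values lay below the DMSO values, and CTSH fell by 0.75 on the log2 scale (SE 0.06, limma adjusted p = 7.71e-08). CTSZ, a carboxypeptidase, had a log2 fold change of -0.07 with a 95% interval of -0.15 to 0.02 (limma adjusted p = 0.145). Without TP-064 replicate 2 it was called lower, at -0.10, and library size scaling turned its sign, to 0.05.

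All 10 glycosidases and sulfatases changed, 8 upward and 2 downward. SGSH (chr17:80206716-80220923, minus strand), a sulfatase of heparan sulfate, had 2377, 2034 and 2233 normalized reads with TP-064 and 1145, 1062 and 1159 with DMSO. Its groups were apart, and it rose by 0.98 on the log2 scale (SE 0.06, limma adjusted p = 8.83e-10). It overlaps SLC26A11 on the opposite strand over 161 bases of exon, and that gene had 1968, 2078 and 1950 against 349, 320 and 331. The part of opposite-strand reads in the SGSH value was not tested. GAA (chr17:80101556-80119879, plus strand), which degrades glycogen in the lysosome, had 3606, 3639 and 3379 against 1867, 1790 and 1838. The TP-064 values were all far above the others, and the log2 difference was 0.95 (SE 0.04, limma adjusted p = 2.72e-11). NEU1 (chr6:31857659-31862906, minus strand), a sialidase, had 2695, 2821 and 2609 against 1520, 1472 and 1397. No values overlapped, and NEU1 rose by 0.89 (SE 0.05, limma adjusted p = 2.03e-10). GLB1, the beta-galactosidase that forms a complex with CTSA and NEU1, rose by less, at 0.27.

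The fallers of this role were GUSB and GLA. GUSB (chr7:65960684-65982314, minus strand), the beta-glucuronidase, had 3576, 3555 and 3480 normalized reads with TP-064 and 5846, 6132 and 5872 with DMSO. The groups were well apart and GUSB fell by 0.75 (SE 0.04, limma adjusted p = 7.04e-11). The annotation holds 11 pseudogene loci named for GUSB, so reads from copies make this value uncertain, though how alike they are was not examined. Among the risers it names 5 pseudogenes for ATP6V1G1, 4 for ATP6V0E1 and 1 each for IDS and ATP6V1E1, with the same uncertainty. GLA (chrX:101397803-101408012, minus strand), the alpha-galactosidase that acts on globotriaosylceramide, had 1414, 1412 and 1397 against 2139, 1978 and 2090. All its TP-064 values lay below the DMSO values, with a fall of 0.55 (SE 0.04, limma adjusted p = 2.40e-08). The remaining risers were NAGLU at 0.52, HEXA at 0.44, IDS at 0.29 and MAN2B1 at 0.24, which act on heparan sulfate, the ganglioside GM2, heparan and dermatan sulfate, and mannosides. Of the 4 enzymes of heparan sulfate breakdown among the 45 genes, SGSH, NAGLU and IDS thus rose and GUSB fell.

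Each of the 5 lipid hydrolases and lumenal cofactors rose, with a median log2 fold change of 0.77. PSAP (chr10:71816298-71851375, minus strand), the precursor of the saposins that present sphingolipids to their hydrolases, had 14705, 15146 and 14479 normalized reads with TP-064 and 6475, 6741 and 6901 with DMSO. It stood highest of the 45 genes in fold change, at 1.14 on the log2 scale or 2.20-fold (SE 0.04, limma adjusted p = 6.59e-13). NPC2 (chr14:74476192-74494177, minus strand), which hands cholesterol to NPC1, had 1992, 1948 and 1855 against 926, 884 and 973. All its TP-064 values exceeded the DMSO values, at 1.06 on the log2 scale or 2.08-fold (SE 0.05, limma adjusted p = 7.10e-11). ASAH1, the acid ceramidase, had 3044, 2990 and 3022 against 1732, 1817 and 1777. Its replicates were close and its groups apart, and the log2 difference was 0.77 (SE 0.04, limma adjusted p = 1.43e-10). GRN, the progranulin precursor, rose by 0.41, from 11200, 10884 and 11509 to 14905, 15382 and 14294. LIPA, the acid lipase for cholesteryl esters and triglycerides, rose by 0.22.

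**Figure D4:**
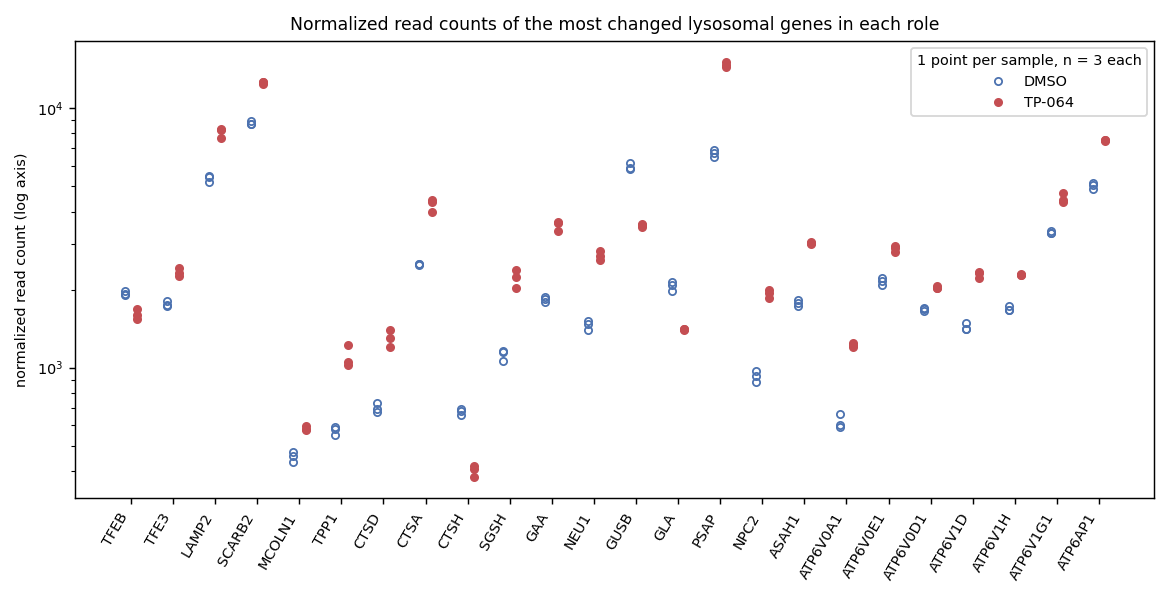
Normalized read count on a log axis in each of the 6 samples, for the regulators and the genes with the largest called changes in each role; open points are DMSO and filled points TP-064, 3 of each per gene. The filled points lie above the open ones except for TFEB, CTSH, GUSB and GLA.

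None of the 16 V-ATPase genes was called lower: 12 rose and 4 did not pass the test, with a median log2 fold change of 0.31. In V0, 4 of 6 subunits rose. ATP6V0A1 (chr17:42458844-42522611, plus strand), an isoform of the a subunit, which sets where the pump is placed, had 1221, 1198 and 1242 normalized reads with TP-064 and 663, 599 and 588 with DMSO. Its groups were far apart, at 0.98 on the log2 scale or 1.98-fold (SE 0.06, limma adjusted p = 7.44e-10). ATP6V0E1 (chr5:172983757-173035445, plus strand), a small V0 subunit, had 2799, 2902 and 2939 against 2159, 2083 and 2219. All TP-064 values were higher, by 0.42 (SE 0.04, limma adjusted p = 2.59e-07). ATP6V0D1 (chr16:67438014-67481237, minus strand), which links the rotor of V1 to V0, had 2030, 2056 and 2033 against 1677, 1650 and 1701. The spread was small in both groups and the log2 fold change was 0.28 (SE 0.04, limma adjusted p = 1.28e-05). ATP6V0B, of the proteolipid ring, rose by 0.11 (limma adjusted p = 0.0221), a call that was lost at a threshold of 0.01 and on leaving out TP-064 replicate 1 or 2 or DMSO replicate 1 or 2.

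The other V0 members did not pass. ATP6V0A2, the a subunit isoform known for the Golgi, had 4423, 4359 and 4470 normalized reads with TP-064 and 4552, 4497 and 4544 with DMSO. Its TP-064 values all lay just below the others, with a log2 fold change of -0.04 and a 95% interval of -0.11 to 0.03 (limma adjusted p = 0.351). Library size scaling turned its sign, and there it was called higher, at 0.09. ATP6V0C, the main proteolipid of the ring that carries the protons, had only 10.5, 5.93 and 17.3 against 11.4, 14.9 and 5.41. Of its exon length, 72.1% is shared with other annotated genes on the same strand and the annotation names 4 pseudogenes, so its level is uncertain. Its 95% interval ran from -0.92 to 1.05 (limma adjusted p = 0.908), so changes of about 2-fold in either direction are not excluded.

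The balance of a subunit isoforms was compared per kilobase of merged exon length. ATP6V0A1 made up 9.69%, 9.92% and 10.7% of the summed level of ATP6V0A1, ATP6V0A2 and TCIRG1 in the TP-064 libraries and 4.82%, 4.40% and 4.17% in the DMSO libraries. TCIRG1, the isoform of osteoclasts and immune cells, is not among the 45 genes. It had 3140, 2961 and 2708 normalized reads against 3790, 3781 and 3965 and fell by 0.39 on the log2 scale (SE 0.05, limma adjusted p = 4.62e-06). Mean shares were 10.1% ± 0.544 and 4.46% ± 0.331 for ATP6V0A1, 29.2% and 26.1% for ATP6V0A2, and 60.7% and 69.4% for TCIRG1 (SD, n = 3; two-sided exact permutation p = 0.1 for each). TCIRG1 thus stayed the most abundant isoform in both groups. With the longest transcript as length the ATP6V0A1 share was 12.9% and 5.87%.

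**Figure D5:**
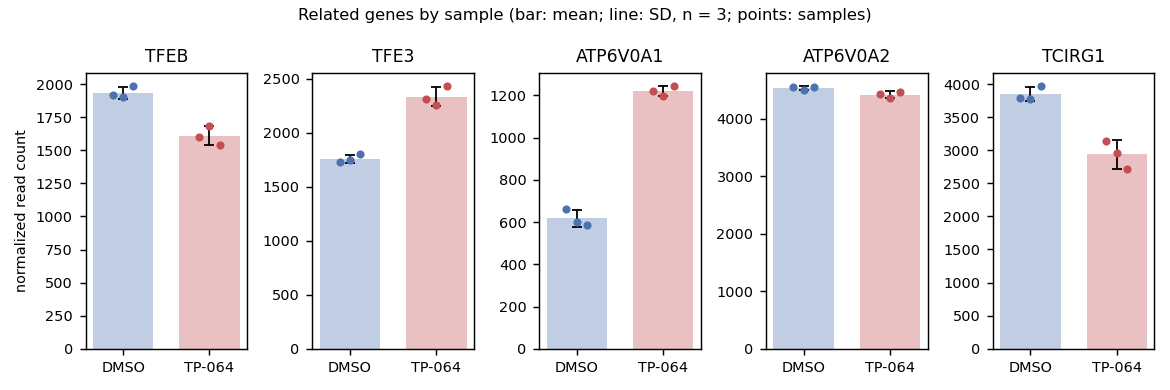
Normalized read counts of TFEB and TFE3 and of the a subunit isoforms ATP6V0A1, ATP6V0A2 and TCIRG1, each on its own axis from 0; points are samples, bars the mean and lines the SD of 3. TFE3 and ATP6V0A1 are higher in the TP-064 samples, and TFEB and TCIRG1 are lower.

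In V1, 7 of 8 subunits rose, at a median log2 fold change of 0.36. ATP6V1D (chr14:67294371-67360265, minus strand), of the central rotor, had 2308, 2342 and 2213 normalized reads with TP-064 and 1406, 1480 and 1410 with DMSO. All TP-064 values were higher, at 0.68 on the log2 scale (SE 0.04, limma adjusted p = 2.26e-09). It lies opposite EIF2S1, which fell by 0.35, over 269 bases of exon. ATP6V1H, a regulatory subunit, had 2290, 2277 and 2275 against 1672, 1728 and 1662. Its TP-064 values were nearly equal and all above the DMSO values, at 0.43 (SE 0.04, limma adjusted p = 1.23e-07). ATP6V1G1 (chr9:114587746-114598373, plus strand), of the peripheral stalks, had 4347, 4717 and 4433 against 3300, 3314 and 3372. It rose by 0.43 as well (SE 0.04, limma adjusted p = 1.15e-07).

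Within V1 the subunits of the ATP-hydrolysing ring had the smallest differences. ATP6V1A, the catalytic subunit, rose by 0.17, and ATP6V1B2, which completes the catalytic ring with it, had 3692, 3742 and 3680 normalized reads against 3789, 3753 and 3874. That difference was -0.04, with a 95% interval of -0.11 to 0.04 (limma adjusted p = 0.343), and library size scaling turned it to a called rise of 0.08. Stalk subunits ATP6V1F, ATP6V1E1 and ATP6V1C1 rose by 0.39, 0.33 and 0.20. Whether the subunits' changes differ from each other was not tested. Of the accessory proteins, ATP6AP1 (chrX:154428632-154436516, plus strand), which helps assemble V0, had 7518, 7506 and 7516 against 5049, 4865 and 5155. It rose by 0.58 (SE 0.03, limma adjusted p = 9.92e-10). ATP6AP2, also known as the prorenin receptor, had a log2 fold change of 0.04 with a 95% interval of -0.04 to 0.13 (limma adjusted p = 0.36) and was called higher under library size scaling, at 0.17.

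Levels of different genes were compared per kilobase of merged exon length. In the DMSO samples the most abundant were GRN, at 3043 ± 84.9 normalized reads per kilobase, ATP6V1F at 2720 ± 58.2, ATP6V1G1 at 2551 ± 29.1, PSAP at 2070 ± 66.4 and CTSZ at 1892 ± 65.7 (SD, n = 3). Neighbours in this order were further apart than their SDs. After TP-064, PSAP led with 4562 ± 105, before GRN with 4038 ± 148, ATP6V1F with 3579 ± 200 and ATP6V1G1 with 3447 ± 149, of which the last 2 differ by less than their SDs. At the low end in DMSO stood ATP6V0C at 7.06 ± 3.21, ATP6V0A1 at 56.3 ± 3.70, TPP1 at 87.6 ± 3.27 and HEXA at 88.3 ± 0.495, and TPP1 and HEXA could not be told apart. The place of ATP6V0C is uncertain, since 72.1% of its exon length is shared with same-strand genes. It adds almost nothing to the V0 sum given next. Summed by role, the level per kilobase rose from 5948 to 9946 for the lipid hydrolases and cofactors, of which PSAP and GRN make up most. The sums went from 9160 to 11730 for V1, 3530 to 4203 for V0, 3385 to 3965 for proteases and 5363 to 5746 for glycosidases and sulfatases. In each of these sums the groups were apart, at the smallest p of 0.1 (two-sided exact permutation).

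Exons of 10 of the 45 genes overlap, on the other strand, exons of genes in the table. They are NPC1, CTSA, CTSD, HEXA, SGSH, ASAH1, LIPA, NPC2, ATP6V1D and ATP6V1F, and 9 of them rose. Libraries were stranded, but whether the counting used strand was not given in the sources used here. Without these genes 26 of 35 rose and 4 fell, 7 rose by at least 1.5-fold, and the median log2 fold change was 0.29. On the same strand, besides CTSD and ATP6V0C, annotated genes share 21.2% of the exon length of MAN2B1, 17.4% of IDS, 12.6% of NAGLU and 11.55% of TPP1.

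Other lysosomal genes, 191 in 8 lists, were set beside the 45. Like the 45 genes, these lists were chosen with earlier results of these data known. Of the 178 tested, 97 rose (54.5%) and 43 fell (24.2%), and their median log2 fold change was 0.17. Among glycosidases and sulfatases 12 of 21 rose and 3 fell, and IDUA, which acts on heparan and dermatan sulfate, went from 118, 140 and 132 normalized reads after DMSO to 587, 552 and 559 after TP-064, a log2 difference of 2.11 (limma adjusted p = 1.55e-11). ARSA, the sulfatase of sulfatide, rose by 1.51, while AGA, which cuts glycans from asparagine, fell by 0.29.

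Among lipid and nucleic acid hydrolases and their cofactors 9 of 15 rose and 3 fell. GM2A, the activator protein for GM2 breakdown, went from 3080, 3193 and 3149 normalized reads to 11192, 11507 and 11382, a log2 difference of 1.85 (limma adjusted p = 7.09e-15). SMPD1, the acid sphingomyelinase, rose by 1.0, and GGH, which trims folate polyglutamates, fell by 1.06. Sphingolipid breakdown was looked at as a route after these values were seen: PSAP, GM2A, ASAH1, SMPD1, ARSA and GALC (0.74) were among those that rose, and GLA was among those that fell. Among the remaining proteases 6 of 11 rose and 3 fell, with the cathepsin CTSF at 1.59 and CTSO at 1.11, the aspartic protease NAPSA at -1.07 and CTSV at -1.48 on the log2 scale.

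Membrane proteins rose in 24 of 38 cases and fell in 5, with the cystine exporter CTNS at 1.10 and LAMP3 at -0.45. Other V-ATPase subunits and assembly factors rose in 9 of 15 cases and fell in 4. DMXL2, an assembly factor, rose by 1.02, and ATP6V0E2, the paralogue of ATP6V0E1, fell by 0.60. The genes that sort enzymes to the lysosome showed no such excess, with 8 of 23 risers, 8 fallers and a median of -0.02, but with library size scaling 13 rose and the median was 0.11. IGF2R, a mannose 6-phosphate receptor that carries hydrolases, nonetheless rose from 14851, 14962 and 14696 to 38838, 36008 and 37274. Its log2 difference was 1.33 (limma adjusted p = 1.47e-13). M6PR, the other mannose 6-phosphate receptor of that list, did not pass the test, at -0.02 (limma adjusted p = 0.711). With library size scaling M6PR was called higher, at 0.11. Per kilobase of merged exon length in DMSO, IGF2R had 831 normalized reads and M6PR 2283. In the tethering complex HOPS with RAB7 and BORC, 16 of 27 rose and 7 fell, with VPS41 at 0.82.

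Of the 28 tested genes around TFEB and mTORC1, 13 rose (46.4%) and 10 fell (35.7%). Over all tested genes 31.9% rose and 33.3% fell, so the share of fallers in this list was close to the background. Its median was 0.08 on the log2 scale, beside 0.01 for all genes. RRAGD, a Rag GTPase that brings mTORC1 to the lysosome, had 2339, 2320 and 2310 normalized reads with TP-064 and 489, 476 and 516 with DMSO. It had the largest fold change of the 178 lysosomal genes tested, at 2.23 on the log2 scale or 4.70-fold (SE 0.05, limma adjusted p = 2.38e-14). FLCN, which acts on that GTPase and so on the phosphorylation of TFEB and TFE3, had 3014, 3059 and 2878 against 1174, 1073 and 1140, a log2 difference of 1.40 (SE 0.05, limma adjusted p = 1.10e-12). Both are described as targets of TFEB and TFE3. SKP2, a subunit of a ubiquitin ligase, fell by 0.81, and PPP3R1, the regulatory subunit of calcineurin, fell by 0.66.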

How the data were processed

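The submitters' processing notes name TopHat2 2.0.10, HTSeq 0.6.0, DESeq 1.18.0 and the build hg38. Annotation release, strand setting and row filters were not given in the sources used here. The authors deposited 1 table that holds a signal for each gene in each sample: its count over that sample's size factor, called normalized read count here. Whole reads came back from the steps of each column within 0.001. The size factor is near 1 for replicate 2 of TP-064 and of DMSO, and recovery there rests on the unrounded decimals and the recomputed factor. The totals bound counting error only.

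Values were fitted with limma 3.58.1 (trend option, R 4.3.3) after adding a pseudocount of 1 and taking log2, which understates changes of low genes. The 16048 genes with a mean of at least 10 were tested, and 2230 were not. With 4 residual degrees of freedom, Benjamini-Hochberg adjustment ran over all tested genes, two-sided. Intervals are 95%. The procedure was tested on simulated data. Symbols and exon lengths come from GENCODE 29 (18214 of 18278 identifiers matched). The chi-square of reads between replicates was 3.18 to 7.95 per degree of freedom, above sampling noise for each pair, and all 6 libraries were kept as separate samples.

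The members and lists were chosen with earlier results of these data known. Values in every sample are given for the regulators and, in each other role, for the 3 largest called rises and falls; other lists give up to 2 called genes with the smallest p in each direction, and not every gene so taken is reported here. Genes named outside the rule were chosen after their values were seen. Alternatives were other scalings, filters, pseudocounts and thresholds, edgeR 4.0.16, DESeq2 1.42.0 and limma-voom on recovered reads, a fit blocked on replicate number, leaving out single replicates, a 1.2-fold null, and dropping genes that share exonic bases with a gene on the other strand.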

Additional observations from a re-analysis of the deposited data

How the results depend on the processing

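Each of the 39 called members kept its direction under every alternative run, and ATP6V0B was the only one to lose its call under any of them other than the null of a 1.2-fold change. That null left 26 of the 39 calls, 23 of them higher, and 5592 genes in all (2687 higher, 2905 lower). By role it left 1 regulator, 2 membrane proteins, 2 V0 and 4 V1 subunits. In the other lists it left 0 falling glycosidases and sulfatases, 1 falling lipid or nucleic acid hydrolase, 12 rising and 3 falling membrane proteins, 5 rising V-ATPase genes, 2 rising and 0 falling sorting genes, 10 rising and 1 falling gene of HOPS, RAB7 and BORC, and 3 falling genes around TFEB and mTORC1. Dropping genes that share exonic bases with a gene on the other strand left 9 members at 1.5-fold or more, 7 of them higher, 2 lipid hydrolases and cofactors, and a member median of 0.29. In the other lists it left 5 rising lipid and nucleic acid hydrolases, 3 falling membrane proteins, 4 rising and 2 falling V-ATPase genes, 4 falling genes of HOPS, RAB7 and BORC and 3 around TFEB and mTORC1. These counts fall because fewer genes enter. Library size scaling gave 2 called accessory proteins, 13 rising sorting genes, 3 falling membrane proteins, 2 falling genes of HOPS, RAB7 and BORC, 6 falling genes around TFEB and mTORC1, a member median of 0.52, and signs turned to 0.0860 for ATP6V0A2 and 0.0842 for ATP6V1B2. The cause was not tested. A threshold of 0.01 left 4 falling genes of HOPS, RAB7 and BORC. The member median was 0.42 with TMM in limma, with edgeR and with limma-voom. Leaving out each replicate in turn gave 9732 to 10247 genes, 38 to 40 members, 14 to 16 members at 1.5-fold or more and a member median of 0.38 to 0.41. TCACGTGA between G and C, added after the data were seen, gave 3 members. With the longest transcript as length the ATP6V0A1 share was 12.9% and 5.87%, and the ratio of TFE3 to TFEB 1.10 and 0.691. Same-numbered samples did not deviate together (correlations -0.0859, 0.0659 and -0.0793), and differently numbered ones gave -0.1145 to 0.1464. With 3 samples per group this check cannot tell whether the numbers pair the samples. With a replicate block 10491 genes and 39 members were called. The low reads of ATP6V0C limit what can be said of it.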
